A study of Homo sapiens with 4 samples.

Results

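The genes examined were 6 metallothioneins (MT1E, MT1F, MT1G, MT1M, MT1X and MT2A) and 4 genes of the zinc response, namely the transcription factor MTF1, the zinc exporter SLC30A1 and the zinc importers SLC39A10 and SLC39A14. They were chosen by name, as rows whose identifier carries that symbol in GENCODE v29, and make up 10 of the 57500 genes counted. RNA-sequencing compared parental SUM159 cells with 3 NOS2KO clones of the same line, with 1 library each, and asked how the transcriptome differs once NOS2, the gene of inducible nitric oxide synthase (iNOS), is targeted. SUM159 is a triple-negative breast cancer cell line that the study uses as a model of metaplastic breast cancer (MpBC). The labels give the control as parental cells. The clones came from cells transfected with a NOS2 double nickase plasmid, selected with puromycin and then picked by iNOS immunoblotting and by a nitrite/nitrate assay, so the clones also differ from the control by selection. All cells were grown in DMEM with serum, and the labels name no other treatment. The sample labels number the clones 1, 5 and 6.

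Metallothioneins are small cysteine-rich proteins that bind zinc and copper and buffer the free metal in the cytosol. Free zinc is sensed by MTF1, which enters the nucleus and binds metal response elements in the promoters of the metallothioneins and of SLC30A1. SLC30 proteins move zinc out of the cytosol and SLC39 (ZIP) proteins move it in, and nitric oxide is known to release zinc from metallothionein thiols. Metallothionein genes also respond to glucocorticoids and to other stresses, and in culture their level follows the metal content of the medium.

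The promoters are shown first, since the metal response element is what the metallothioneins and SLC30A1 are known to share. The 300-base windows of RefSeq on GRCh38.p14, from 250 bases before to 50 bases after each transcription start, were searched on both strands for the letters TGCACNC and TGCGCNC, which are the core of the element. Of the 10 genes, 5 had a window (MT1X, MT2A, MTF1, SLC30A1 and SLC39A10). In the lines below, capitals mark the matches, and a match on the opposite strand reads GNGTGCA or GNGCGCA.

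For MT2A, 7 matches lay before the RefSeq start and 1 after it. The bases before that start fall in the 5′ untranslated region of a longer MT2A transcript of GENCODE v29, so short runs around the 7 matches are shown, with 3 bases on each side.
MT2A chr16:56608335-56608347 (+ strand): cgcTGCACCCagc
MT2A chr16:56608413-56608440 (+ strand): cccGTGTGCAgagccgggTGCGCCCggc
MT2A chr16:56608442-56608454 (+ strand): cagTGCGCGCggc
MT2A chr16:56608493-56608505 (+ strand): ggcGTGTGCAggc
MT2A chr16:56608527-56608539 (+ strand): tttTGCACTCgtc
MT2A chr16:56608573-56608585 (+ strand): cgcTGCACTCcac

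For MT1X, all 4 matches lay before the start. The run shown ends where the first exon of a GENCODE v29 transcript of MT1X begins.
MT1X chr16:56682220-56682423 (+ strand): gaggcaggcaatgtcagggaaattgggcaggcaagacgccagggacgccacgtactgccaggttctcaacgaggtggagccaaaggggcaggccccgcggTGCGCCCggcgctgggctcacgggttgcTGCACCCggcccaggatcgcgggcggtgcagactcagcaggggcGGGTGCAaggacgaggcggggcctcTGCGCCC

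For SLC30A1, the exporter, 1 match lay in the 250 bases before the start and 1 after it. The run shown is these 250 bases, which lie in no GENCODE v29 exon of the gene.
SLC30A1 chr1:211579162-211579411 (− strand): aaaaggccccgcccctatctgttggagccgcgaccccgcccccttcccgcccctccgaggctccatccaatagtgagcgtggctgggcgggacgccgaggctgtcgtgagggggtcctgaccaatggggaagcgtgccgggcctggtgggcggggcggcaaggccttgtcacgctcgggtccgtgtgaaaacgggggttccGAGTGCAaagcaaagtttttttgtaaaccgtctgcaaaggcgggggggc

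Among all 35116 RefSeq promoter windows of this length, 29.6% held at least 1 match, 8.6% at least 2, 0.601% at least 4 and 0.0199% at least 8. MT2A, with 8 matches, and MT1X, with 4, thus stood among few promoters. The count of SLC30A1, with 2 matches, was more common. The SLC30A1 window, from 211579112 to 211579411, lies wholly before the gene as counted, which begins at 211578742 on the minus strand. The bases next to that beginning were not searched. MTF1 had 0 matches, and the windows at the 2 starts of SLC39A10 had 0 and 1. Among the other metallothioneins with a window, MT1H had 8 matches and MT1B and MT4 had 3 each, and all 3 genes had 0 counts in every library. A match is a description of letters, and none within a window says only that these letters are not there.

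**Figure D1:**
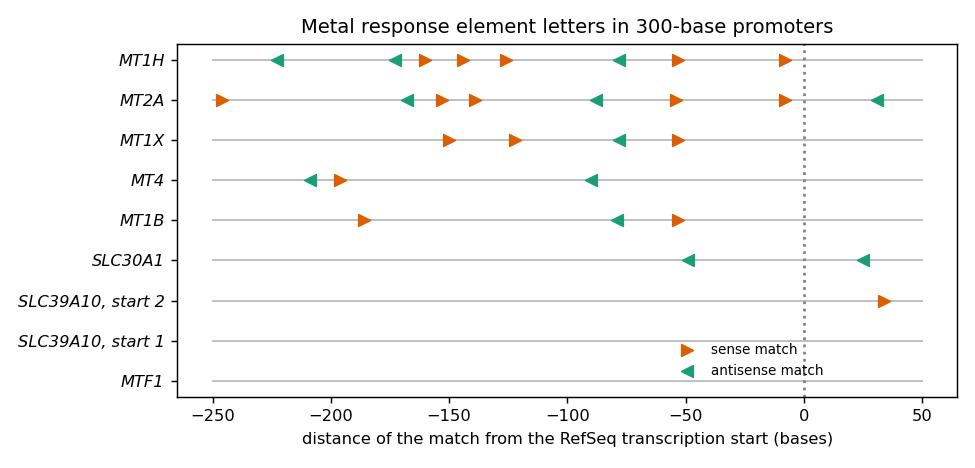
Each line is a 300-base RefSeq promoter window, with the distance from the transcription start in bases on the x axis, and triangles mark the first base of a match to the metal response element letters on the sense or the antisense strand. MT1H and MT2A carry 8 matches each, MT1X 4 and SLC30A1 2, while MTF1 carries none.

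The counts on genes ranged from 90467395 in the parental library to 122171287 in clone 1, and 3 counts, taken as the floor of detection, stood for 0.0262 to 0.0332 CPM, the count relative to the library size scaled by the trimmed mean of M-values (TMM). NOS2 itself had 2 counts in parental cells, 3 in clone 1, 18 in the clone labelled 5 and 1 in clone 6, so its mRNA does not check the labels, and clone 5 is called the clone labelled 5. The receptors ESR1 and PGR were at or under 0.741 CPM in every library, whereas ERBB2 lay between 48.3 and 106 CPM. The summed level of the mesenchymal markers VIM, ZEB1, CDH2 and FN1 was 4053 CPM in the parental library and 5954 to 6430 CPM in the clones. Most of this sum was VIM and FN1, while ZEB1 was lower in every clone, at 83.7 CPM in the parental library and 39.5 to 57.8 in the clones, and CDH2 had 160 CPM in the parental library and 109 to 183 in the clones. Of the epithelial markers, EPCAM and CDH1 were at or under 0.413 CPM in every library, while the sum with KRT8 and KRT18 was 557 CPM in the parental library and 835 to 1274 CPM in the clones. The 6 markers of cells that the culture should lack summed to 27.5 CPM in the parental library and 53.7 to 117 CPM in the clones. The T cell marker CD3E had 0 to 8 counts, and the leukocyte gene PTPRC went from 4.45 CPM in the parental library to 41.7 to 105 CPM. The part of these markers in the results on zinc genes was not tested.

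Of the 6 metallothioneins, MT2A, MT1X and MT1E were expressed and the other 3 were at or under the floor in every library. For MT2A, MT1X and MT1E the mean of the clones differed from the parental level by less than the SD of the clones. The clones themselves differed, and these expressed genes had the same order: clone 1 was highest, the clone labelled 5 was in the middle, and clone 6 was lowest. The parental level lay within the range of the clones for each of them. None met the criterion for a difference from the parental library, which was an absolute log2 fold change over 1 and, by edgeR's quasi-likelihood test, p under 0.05 before adjustment. In bulk RNA, fewer cells that express a gene and less RNA per cell cannot be told apart. That criterion was met by 9.58% of all 22511 genes tested, 5.34% lower in the clones and 4.24% higher, while an adjusted p under 0.05 was reached by 0.00444%, which is 1 gene and not one of the 10.

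MT2A (ENSG00000125148, chromosome 16 of GRCh38 from 56608199 to 56609497, plus strand), the most abundant human metallothionein in many cell types, had 137 CPM in parental cells, 224 in clone 1, 108 in the clone labelled 5 and 50.7 in clone 6. Clone 1 was above the parental library and the other 2 clones were below it. The clones averaged 128 ± 88.3 CPM (SD, n = 3), and the log2 fold change of the clones over the parental library was −0.10 (standard error 0.83, edgeR adjusted p = 0.970). On the log2 scale, the ratio to parental cells was 0.71 in clone 1 (exact 95% interval of the 2 counts 0.68 to 0.74), −0.34 in the clone labelled 5 (−0.38 to −0.31) and −1.44 in clone 6 (−1.48 to −1.39). These intervals cover counting error only, since each clone has 1 library. The intervals lay on both sides of 0, so the clones moved away from the parental level in different directions by more than counting error.

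MT1E (ENSG00000169715, chromosome 16 from 56625475 to 56627112, plus strand) varied most. Its level was 17.4 CPM in parental cells, 54.1 in clone 1, 20.4 in the clone labelled 5 and 4.66 in clone 6. Clone 1 stood 3.10-fold above the parental library and clone 6 stood 3.74-fold below it, with the clone labelled 5 near the parental level. The mean of the clones was 26.4 ± 25.3 CPM (SD, n = 3), and the log2 fold change was 0.60 (standard error 1.25, edgeR adjusted p = 0.878). The log2 ratio was 1.63 in clone 1 (1.55 to 1.72), 0.22 in the clone labelled 5 (0.13 to 0.32) and −1.90 in clone 6 (−2.06 to −1.75). Without clone 1 the fitted log2 fold change became −0.48, so the direction of the mean rested on that clone.

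MT1X (ENSG00000187193, chromosome 16 from 56682424 to 56684196, plus strand) varied least of the 3, with 35.7 CPM in parental cells, 42.2 in clone 1, 27.1 in the clone labelled 5 and 18.8 in clone 6. The order of the libraries was that of MT2A. The clones averaged 29.4 ± 11.9 CPM (SD, n = 3), and the fitted log2 fold change was −0.28 (standard error 0.51, edgeR adjusted p = 0.848). Its log2 ratio was 0.24 in clone 1 (0.18 to 0.31), −0.40 in the clone labelled 5 (−0.47 to −0.33) and −0.93 in clone 6 (−1.01 to −0.84).

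**Figure D2:**
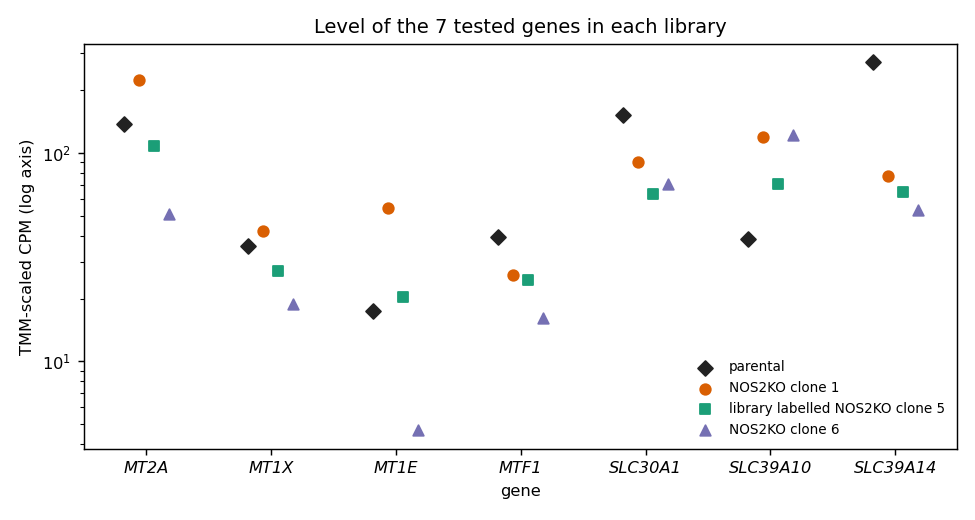
TMM-scaled CPM on a log axis for the 7 tested genes, with 1 point for each of the 4 libraries; levels are not per length and are to be compared within a gene. MT2A, MT1X and MT1E are ordered clone 1, clone 5, clone 6 with the parental library in between, whereas SLC30A1, SLC39A14 and MTF1 are highest and SLC39A10 is lowest in the parental library.

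MT1G (ENSG00000125144), which lies on the minus strand, had 3 counts in parental cells, 2 in clone 1, 2 in the clone labelled 5 and 0 in clone 6. MT1F (ENSG00000198417) had 2 counts in the parental library and 0 in each clone, and MT1M (ENSG00000205364) had 0 counts in every library. These 3 genes did not pass the expression filter, so 7 of the 10 genes were tested, and a difference between libraries was not detectable at this depth.

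Per kilobase of exon, MT2A was the highest of the metallothioneins in every library, at 106 CPM per kb in the parental library against 20.1 for MT1X and 16.6 for MT1E. The order of the other 2 depended on the library. MT1E was above MT1X in clone 1, at 51.4 against 23.8 CPM per kb, and in the clone labelled 5, at 19.4 against 15.3. It was below MT1X in clone 6, at 4.43 against 10.6 CPM per kb. The exon lengths used were 1052 bases for MT1E and 1773 for MT1X. Before division by length, MT1E was below MT1X in the clone labelled 5, at 20.4 against 27.1 CPM, so the order there rested on these lengths.

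The metallothionein counts were also summed, because genes of this family are alike in sequence and reads could be divided among them. Of the 50-base words of the MT2A, MT1E and MT1X transcripts, 3.02%, 7.10% and 18.3% also occurred in transcripts of another gene, and of the 100-base words 0%, 0% and 11.3%. The longer shared words of MT1X belonged to AC026461.1, an overlapping transcript on the same strand that had 0 counts in every library. How reads with several matches, or reads lying over both genes, were counted is not given in the sources used here. The 0 counts of AC026461.1 thus do not show that no MT1X reads were lost. The level of MT1X, also per kilobase, could be too low. The sum over the 6 genes was 190 CPM in parental cells, 320 in clone 1, 156 in the clone labelled 5 and 74.1 in clone 6. The clones spanned 4.32-fold and averaged 183 ± 125 CPM (SD, n = 3), which set the parental library near their mean. The log2 ratio of the sum to parental cells was 0.75 in clone 1 (0.72 to 0.78), −0.29 in the clone labelled 5 (−0.32 to −0.26) and −1.36 in clone 6 (−1.40 to −1.32). MT2A made up 72.1% of the summed counts in the parental library and 68.4% to 69.9% in the clones, which is a narrow range. The share of MT1E was 9.15% in parental cells, 16.9% in clone 1, 13.1% in the clone labelled 5 and 6.28% in clone 6, while that of MT1X was 18.8%, 13.2%, 17.4% and 25.3% in the same order of libraries.

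The spread among the clones was set beside that of all 10709 genes that reached 10 CPM in any library. The highest clone over the lowest was 11.6-fold for MT1E, and 2.37% of those genes had a wider spread. For MT2A it was 4.42-fold, with 5.56% of genes wider, and for MT1X 2.25-fold, with 17.4% wider. The median spread was 1.498-fold. The zinc genes were nearer to it, at 1.73-fold for SLC39A10, 1.60-fold for MTF1, 1.46-fold for SLC39A14 and 1.43-fold for SLC30A1. Between clone 1 and clone 6, all 3 expressed metallothioneins differed over 2-fold, against 15.9% of the genes with at least 10 CPM in either library. Between clone 1 and the clone labelled 5, MT2A and MT1E did so, against 16.1% of genes, and between the clone labelled 5 and clone 6 the same 2 genes did so, against 4.92%. None of the 4 zinc genes differed over 2-fold between any 2 clones.

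MTF1 (ENSG00000188786, chromosome 1 from 37809567 to 37859620, minus strand), the zinc-sensing transcription factor, had 39.4 CPM in parental cells, 25.9 in clone 1, 24.5 in the clone labelled 5 and 16.2 in clone 6. All 3 clones were below the parental library. The log2 fold change was −0.83 (standard error 0.39, unadjusted p = 0.078 and adjusted p = 0.475 in edgeR's quasi-likelihood test), which did not meet the criterion. The log2 ratio was −0.60 in clone 1 (−0.68 to −0.53), −0.69 in the clone labelled 5 (−0.76 to −0.61) and −1.28 in clone 6 (−1.37 to −1.20). Clone 6 was thus the lowest library for MTF1 as well as for the 3 metallothioneins, but the gene did not follow them in clone 1, where they were above the parental library.

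SLC30A1 (ENSG00000170385, chromosome 1 from 211571568 to 211578742, minus strand), the exporter of the plasma membrane and a known target of MTF1, had 152 CPM in parental cells, 90.4 in clone 1, 63.2 in the clone labelled 5 and 70.5 in clone 6. The parental library was above every clone. The clones averaged 74.7 ± 14.1 CPM (SD, n = 3), and the log2 fold change was −1.02 (standard error 0.32, unadjusted p = 0.022 and adjusted p = 0.361 in edgeR's quasi-likelihood test), so SLC30A1 met the criterion narrowly. The log2 ratio was −0.75 in clone 1 (−0.79 to −0.71), −1.26 in the clone labelled 5 (−1.31 to −1.22) and −1.11 in clone 6 (−1.15 to −1.07). The criterion was lost with upper quartile scaling, at −0.93, and with a filter at 1 CPM, at −0.99. It was also lost without the clone labelled 5 (unadjusted p = 0.078) and without clone 6 (unadjusted p = 0.079), both by the same edgeR test.

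The importers differed from the parental library in opposite directions. SLC39A14 (ENSG00000104635, chromosome 8 from 22367249 to 22434129, plus strand), a ZIP importer that carries zinc, iron and manganese, had 272 CPM in parental cells, 77.9 in clone 1, 65.3 in the clone labelled 5 and 53.2 in clone 6. Every clone was far below the parental library, and the clones lay close together. Their mean was 65.5 ± 12.3 CPM (SD, n = 3), and the fitted log2 fold change was −2.05 (standard error 0.33, unadjusted p = 0.0013 and adjusted p = 0.275 in edgeR's quasi-likelihood test). The parental library was 3.49-fold above clone 1, 4.17-fold above the clone labelled 5 and 5.11-fold above clone 6. SLC39A14 met the criterion under every alternative tried. Its adjusted p was 0.000350 in DESeq2's Wald test, where 1095 genes were called, and 0.112 to 0.726 in the other alternatives.

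SLC39A10 (ENSG00000196950, chromosome 2 from 195575977 to 195737702, plus strand), a ZIP importer of the plasma membrane, had 38.8 CPM in parental cells, 120 in clone 1, 70.8 in the clone labelled 5 and 122.4 in clone 6. The parental library was below every clone, and clones 1 and 6 were level, at a log2 ratio of −0.03 to each other (−0.07 to 0.00). The clones averaged 104 ± 29.03 CPM (SD, n = 3), and the fitted log2 fold change was 1.43 (standard error 0.41, unadjusted p = 0.027 and adjusted p = 0.371 in edgeR's quasi-likelihood test). The log2 ratio to parental cells was 1.62 in clone 1 (1.57 to 1.68), 0.87 in the clone labelled 5 (0.81 to 0.93) and 1.66 in clone 6 (1.60 to 1.71). SLC39A10 met the criterion except without clone 6, where the edgeR unadjusted p was 0.061.

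**Figure D3:**
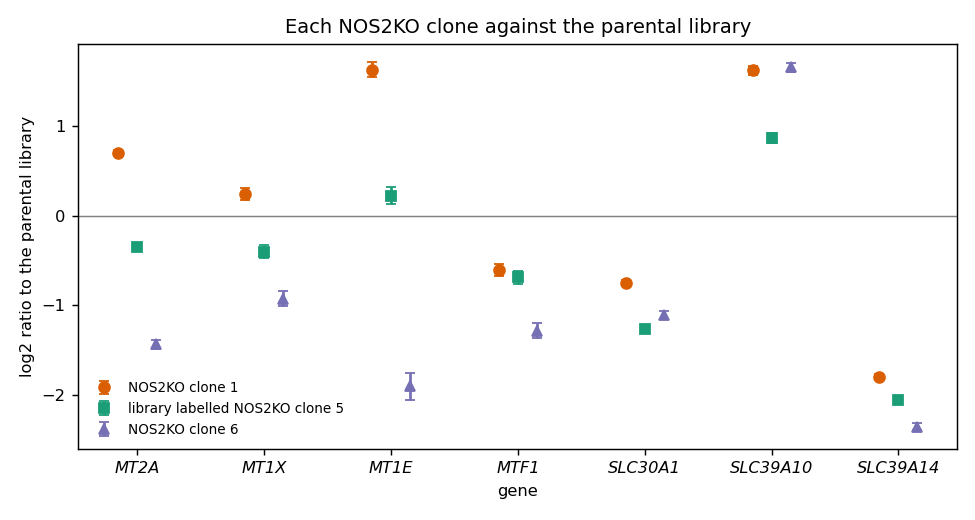
The y axis gives the log2 ratio of each NOS2KO clone to the parental library for the 7 tested genes, with exact 95% intervals that cover counting error only. Each metallothionein has clones on both sides of 0, MTF1, SLC30A1 and SLC39A14 lie below 0 in all 3 clones, and SLC39A10 lies above 0 in all 3.

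Of the 7 tested genes, 3 met the criterion (SLC30A1 and SLC39A14 lower, SLC39A10 higher). Over all tested genes 9.58% met it, 5.34% as lower and 4.24% as higher. All 3 clones were below the parental library for MTF1, SLC30A1 and SLC39A14, as they were for 30.5% of all tested genes. They were above it for SLC39A10, as for 28.6% of all genes. With 1 parental library a gene outside the range of the clones is common. With 1 library against 3, the smallest p of an exact permutation test is 0.25. Against the parental library, 3 of the 7 genes differed over 2-fold in clone 1 (MT1E, SLC39A10 and SLC39A14), where 22.6% of genes with at least 10 CPM in either library did so. In the clone labelled 5, 2 of 7 did so (SLC30A1 and SLC39A14), against 23.1% of genes. In clone 6 all but MT1X did so, against 23.0% of genes. The median log2 fold change was −0.28 over the 7 tested genes and 0.10 over all tested genes.

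Other zinc transporters were read from lists of the SLC30 and SLC39 families. Of the 12 other SLC39 importers, 10 were tested, 2 met the criterion and both were lower in the clones. SLC39A8, also a ZIP importer, had 376 CPM in parental cells, 95.2 in clone 1, 52.1 in the clone labelled 5 and 56.9 in clone 6. As for SLC39A14, each clone was well below the parental library, and the log2 fold change was −2.47 (standard error 0.45, edgeR adjusted p = 0.275). SLC39A4, the importer that takes up dietary zinc in the intestine, had 28.2, 12.4, 11.6 and 12.7 CPM in the same order. Its clones were level with each other, at a log2 fold change of −1.21 (standard error 0.31, edgeR adjusted p = 0.332). Over the 10 importers all clones were below the parental library for 3 and above it for 2, against 30.5% and 28.6% of all tested genes, and the median log2 fold change was −0.23. With the members included, 3 of the 12 tested SLC39 genes met the criterion as lower and SLC39A10 alone as higher, against 5.34% and 4.24% of all tested genes.

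Of the 9 other SLC30 genes, 7 were tested and none met the criterion, with a median log2 fold change of −0.25. The 3 with the highest mean level were SLC30A5, SLC30A9 and SLC30A7, which serve organelles of the secretory route or other inner compartments. SLC30A5 had 132 CPM in parental cells, 106 in clone 1, 114 in the clone labelled 5 and 105 in clone 6. SLC30A9 had 107, 107, 75.2 and 88.1 CPM, and SLC30A7 had 53.8, 39.3, 39.96 and 31.8 CPM, in the same order. All clones were below the parental library for these 3 genes, by less than counting error in clone 1 for SLC30A9, and for SLC30A6, which pairs with SLC30A5 in the early secretory route and was singled out after its values were seen. SLC30A6 had 47.1 CPM in the parental library and 23.7 to 26.7 in the clones, with a fitted log2 fold change of −0.89 (standard error 0.28, edgeR unadjusted p = 0.021). The other way, all clones were above the parental library for SLC30A3, with 2.71 CPM in the parental library and 3.57 to 6.44 in the clones, and for SLC30A8, which had 2 counts in the parental library and 4 to 34 in the clones. The 7 tested genes thus held 4 with all clones below and 2 with all clones above, against 30.5% and 28.6% of all tested genes.

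**Figure D4:**
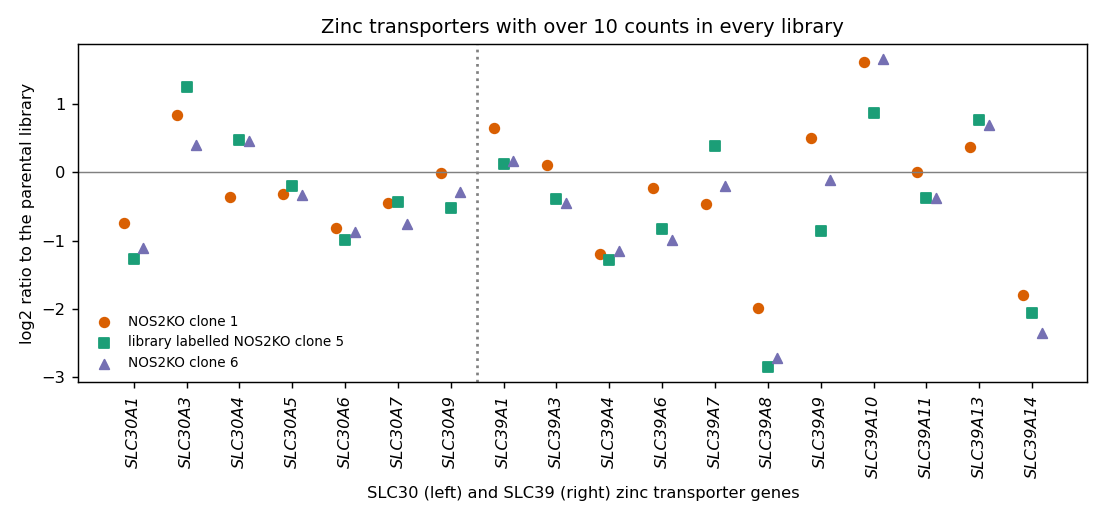
Log2 ratio of each NOS2KO clone to the parental library for the SLC30 genes (left of the dotted line) and SLC39 genes (right of it) with over 10 counts in every library, 1 point per clone. SLC39A8 and SLC39A14 lie lowest, between −2.85 and −1.80, SLC39A4 and SLC30A1 lie between −1.28 and −0.75, and SLC39A10 reaches 1.66.

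The metallothionein genes lie together on chromosome 16, from 56565049 to 56684196 of GRCh38, in a cluster of 16 genes and pseudogenes over 119 kb. Outside MT2A, MT1E, MT1X and MT1A, the 12 remaining genes of the cluster were at or under the floor of 3 counts in every library. MT1A had 3 counts in parental cells, 0 in clone 1, 63 in the clone labelled 5 and 2 in clone 6, which is 0.591 CPM in the clone labelled 5 and nowhere else above the floor. MT1HL1, a metallothionein gene outside the cluster, had 0 counts in parental cells, 6 in clone 1, 17 in the clone labelled 5 and 18 in clone 6. Of the 7 other metallothionein genes, 5 were at or under the floor in every library and 2 were tested, MT1A and MT1HL1. MT1HL1 met the criterion as higher, which 4.24% of all tested genes did. With 0 parental counts, its fitted log2 fold change of 6.76 had no standard error. Its CPM was 1.58-fold, 4.81-fold and 5.50-fold that of a parental floor of 3 counts in clones 1, 5 and 6. The exact interval of its log2 ratio to the parental library began at −0.11 in clone 1, so counting error could give that difference. This interval began at 1.81 in the clone labelled 5 and at 2.01 in clone 6. Of the 50-base words of the MT1HL1 transcript 22.5% also occur in another gene's transcripts, so the few reads of MT1HL1 are uncertain. Of the 8 metallothionein pseudogenes, 2 were tested and none met the criterion.

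Of the protein-coding genes within 300 kb on either side of the cluster, 8 are described here and 7 of these were tested. GNAO1, a G protein alpha subunit, had 207 CPM in the parental library and 35.1 to 50.8 in the clones, with a fitted log2 fold change of −2.21 (edgeR unadjusted p = 0.00096). HERPUD1, a gene of the endoplasmic reticulum stress response, had 225 CPM in the parental library and 61.6 to 84.6 in the clones, with a fitted log2 fold change of −1.56 (edgeR unadjusted p = 0.0039). These 2 genes met the criterion, which 9.58% of all tested genes did, 5.34% as lower. Both had the parental library above all clones, as 30.5% of all tested genes did. For MT2A, MT1E and MT1X it lay within the range of the clones. The 5 tested neighbours that did not meet the criterion had log2 fold changes of −0.92 for CETP, −0.86 for OGFOD1, −0.19 for NUP93, −0.13 for NUDT21 and −0.07 for BBS2. Of these, OGFOD1 also had the parental library above all clones. It had 95.6 CPM in parental cells, 65.3 in clone 1, 54.3 in the clone labelled 5 and 38.9 in clone 6. NUP93, a nucleoporin gene and the nearest tested neighbour on the side of MT1X, had 81.2 CPM in parental cells, 98.2 in clone 1, 67.2 in the clone labelled 5 and 48.9 in clone 6. This was the order of the 4 libraries for MT2A and MT1X, with a narrower range, whereas MT1E had the clone labelled 5 above parental cells.

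**Figure D5:**
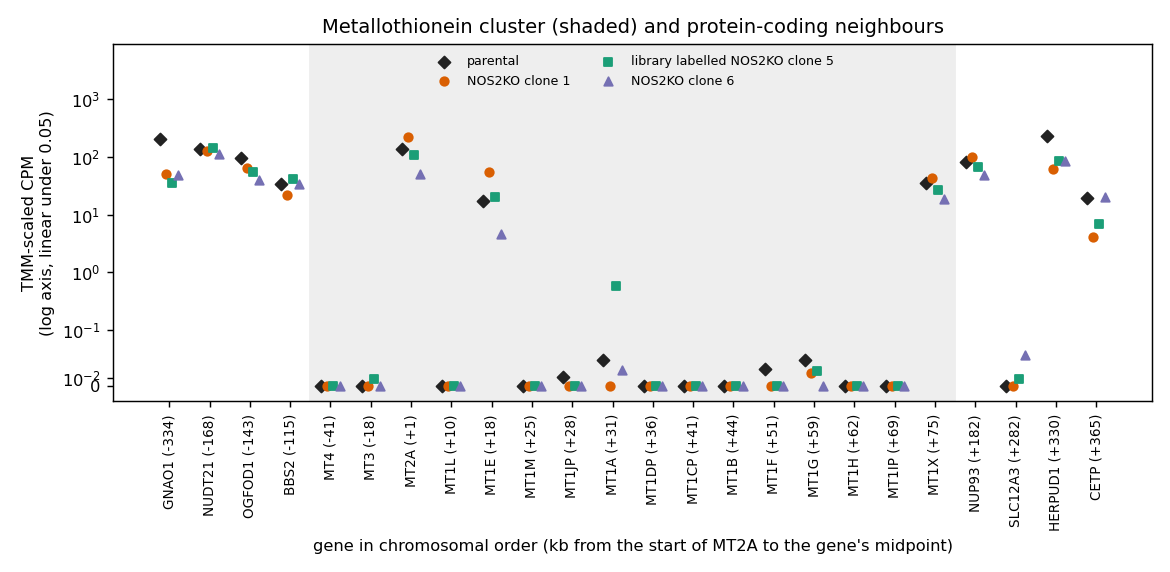
TMM-scaled CPM (log axis, linear under 0.05) in each library for the 16 genes of the metallothionein cluster (shaded) and the 8 protein-coding neighbours described, placed in chromosomal order with the distance from the start of MT2A in kb. MT2A, MT1E and MT1X are the genes of the cluster over 1 CPM, and NUP93 shows the order of libraries of MT2A and MT1X, but not of MT1E, in a narrower range.

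The genes most like MT2A were sought as those whose 3 log2 ratios to the parental library lay nearest to its own, by Euclidean distance. The 10708 genes compared reached 10 CPM in any library and had counts in all 4. They include MT2A and other members, which were left out of the 5 nearest genes listed. The nearest was SLC2A1, the glucose transporter GLUT1, at a distance of 0.13, with log2 ratios of 0.74 in clone 1, −0.33 in the clone labelled 5 and −1.56 in clone 6. It was followed by TMEM158 at 0.18, SAP30, a subunit of a histone deacetylase complex, at 0.28, COTL1, an actin-binding protein, at 0.43 and B4GALT2, a galactosyltransferase, at 0.49. MT1X lay at 0.69, with 33 genes nearer to MT2A, and MT1E at 1.18, with 708 genes nearer. The 3 ratios share the parental library, and the distance is a description of 4 libraries.

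A pair of further lists covered other inputs to metallothionein genes. Of 11 genes that handle copper, the other metal that metallothioneins bind, 1 met the criterion, which 9.58% of all tested genes did. This was SLC31A1, the copper importer CTR1, with 253 CPM in parental cells, 99.3 in clone 1, 129 in the clone labelled 5 and 124 in clone 6. Every clone was below the parental library, at a log2 fold change of −1.11 (standard error 0.30, edgeR adjusted p = 0.337). Of the 11 genes, 2 had all clones below and 7 had all clones above the parental library, against 30.5% and 28.6% of all tested genes, with a median log2 fold change of 0.52. Of 10 genes for the glucocorticoid receptor and its targets none met the criterion, with a median of −0.17. NR3C1, the receptor itself, had 183 CPM in parental cells, 171 in clone 1, 104 in the clone labelled 5 and 131 in clone 6. DUSP1, a phosphatase of MAP kinases, had 56.2 CPM in parental cells, 327 in clone 1, 57.7 in the clone labelled 5 and 83.1 in clone 6, so clone 1 stood alone. ERRFI1, a feedback inhibitor of EGFR, had 360, 159, 382 and 152 CPM in the same order.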

How the data were processed

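Per the labels, poly(A)-enriched RNA of 1 parental SUM159 culture and 3 NOS2KO clones was made into libraries and read as paired ends. The authors deposited raw counts per gene for each library, without normalization. The submitters' processing notes name bcl2fastq 2.17, Trimmomatic 0.36, STAR 2.5.2b, featureCounts of Subread 1.5.2, DESeq2 and GRCh38, while strand setting and annotation release are not given in the sources used here. Of 57500 genes, 56898 had a symbol in GENCODE v29 and 54784 the same coordinates.

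The test was edgeR 4.0.16 in R 4.3.3 (filterByExpr, TMM, glmQLFit, glmQLFTest, group as the only term) over 22511 genes, with Benjamini-Hochberg adjustment. With 1 parental library, all spread was estimated between clones (2 residual and 2.75 prior degrees of freedom, common dispersion 0.319). A ratio of 2 counts carries an exact Clopper-Pearson 95% interval, which covers counting error only. The scripts were tested on simulated data. Alternatives were other scalings, filters and estimation options, DESeq2 1.42.0 and leaving out each clone. Python 3.11.15 was used for the rest.

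The members and the lists (other metallothioneins, pseudogenes, SLC30, SLC39, copper, glucocorticoid, markers) were chosen with earlier results of these data known. Named were all members, list genes that met the criterion or otherwise the 3 with the highest mean CPM, neighbours of the cluster within 300 kb, the 5 genes nearest to MT2A, and NOS2. Of the neighbours, 1 is not reported here.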

Additional observations from a re-analysis of the deposited data

How the results depend on the processing

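The direction of MT1X, MTF1, SLC30A1, SLC39A10 and SLC39A14 held in all 11 alternative fits, with log2 fold changes of −0.64 to −0.04, −0.95 to −0.64, −1.18 to −0.90, 1.30 to 1.66 and −2.20 to −1.92. That of MT1E ranged from −0.48 to 1.10 and that of MT2A from −0.79 to 0.28 when each clone was left out in turn. MT1E turned without clone 1, and MT2A turned without the library labelled clone 5 (0.02) and without clone 6 (0.28). The log2 ratio of the clones' mean metallothionein sum to the parental library was −0.05, and −0.73 to 0.32 when each clone was left out. Over all tested genes, 1 gene was called at an adjusted p under 0.05, 6 without a filter, 5 with the bias-adjusted quasi-likelihood method, 1095 with DESeq2's Wald test and 0 without any 1 clone (edgeR, with 1467 to 4609 genes at an unadjusted p under 0.05). The criterion was met by 2157 genes and by 1466 to 3399 without a clone, and by 3 of the members and 1 to 3 without a clone. Upper quartile scaling moved the median log2 fold change of all genes from 0.10 to 0.20, and turned 1202 lower and 955 higher calls by the criterion into 1002 and 1124. DESeq2's Wald test gave 1144 and 1591. No paired analysis was possible because the parental group has 1 library and carries no clone number. With 1 parental library, its own variation cannot be told apart from a difference between parental cells and clones, and the effect of targeting NOS2 cannot be told apart from that of selecting clones.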
